A study of Mus musculus with 3 samples.

Results

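Transcript levels were compared between CLDE cells given an siRNA against Krt15 and CLDE cells given a non-targeting siRNA. CLDE is a line of mouse dental epithelium, established from the cervical loop of the tooth, so the data describe 1 cell line without a tooth around it. All cells were harvested 72 h after transfection, and each condition was measured on 1 array: Krt15 siRNA (siKrt15), non-targeting ON-TARGETplus siRNA (siNeg) and mock transfection. The 3 arrays lay on 1 slide and were scanned together. For siNeg and siKrt15 the labels contradict each other, since titles and source names give one treatment and descriptions and treatment fields give the other, so each name below means the array titled so. A gene was compared where its probes were well above background on both siRNA arrays and reached a processed signal (background-corrected brightness, in arbitrary units) of at least 100 on at least one of them. This held for 18025 of 56598 probes and for 13089 of 37071 gene names. Differences are siKrt15 minus siNeg on the log2 scale, after each array was scaled to its 75th percentile, so that 1 is 2-fold. With 1 array in each condition no test across arrays was possible, and differences at the level of the culture cannot be told apart from the effect of the siRNA.

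Keratin 15 is a type I keratin of basal cells in stratified epithelia, where it pairs with a type II keratin to build intermediate filaments, and it is often used as a marker of epithelial stem and progenitor cells. In the tooth germ the outer enamel epithelium forms the outer layer of the enamel organ and meets the inner layer at the cervical loop, where dental epithelial progenitors reside. An siRNA acts by guiding cleavage or repression of matching transcripts, and a partial match of its seed can also lower other transcripts. The series title asks about keratin 15 and proliferation; the account here is mainly of genes outside the cell cycle.

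Krt15 was lowest on the array titled siKrt15. The single Krt15 probe gave signals of 2638 on mock, 1647 on siNeg and 267 on siKrt15, a difference of −2.88 ± 0.20 from siNeg. The ± value is the SD that the scanner's error model gives for the difference. It was near 0.20 for almost every gene, so it is close to a fixed share of the signal and does not measure the scatter of each gene. Replicate spots on the siNeg and siKrt15 arrays had a median SD of 0.045. The ± value belongs to 1 hybridisation and leaves out the spread between cultures. The direction goes with the titles and against the descriptions, and siNeg itself was lower than mock by a difference of −0.60. The probe ends on the stop codon of the transcript, so it reads the end of the coding sequence. The next lowest of the named genes was Tmprss4, a membrane-anchored serine protease. These sequences show where on each messenger the loss was read, 5′ to 3′, with the stop codon in capitals; positions are on mm9, minus strand.
Krt15 (chr11:99993331-99993390): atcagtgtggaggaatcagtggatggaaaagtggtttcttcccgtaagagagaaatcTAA
Tmprss4 (58 coding bases of a probe that spans chr9:44981478-44981986, across a gap): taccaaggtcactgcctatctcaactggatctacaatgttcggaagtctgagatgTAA
The Tmprss4 probe shown had signals of 154 on mock, 141 on siNeg and 29.7 on siKrt15, a difference of −2.51. A further Tmprss4 probe, at chr9:44980979-44981038, had 723.5, 711.7 and 151.7, a difference of −2.49. Both Tmprss4 probes, though unequal in brightness, gave nearly the same difference, and on each of them mock and siNeg lay close together. The sequence of the siRNA was not used here.

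Of the 13089 genes compared, 263 (2.01%) differed by at least 2-fold between siKrt15 and siNeg: 205 were higher in siKrt15 (1.57%) and 58 lower (0.443%). For the same genes the controls differed far less, with 5 (0.0382%) at least 2-fold apart between siNeg and mock, of which 3 were higher in siNeg (0.0229%) and 2 lower (0.0153%). The SD over genes was 0.364 for siKrt15 minus siNeg and 0.141 for siNeg minus mock. The central 95% of genes lay between −0.64 and 0.79 in the first and between −0.27 and 0.28 in the second. The cell cycle list held 85 of the 205 higher genes and 0 of the 58 lower genes. Outside that list, 120 of 12882 genes were higher (0.932%) and 58 lower (0.45%). The list is not complete: Hrob, a homologous recombination factor, and Skp2, the ubiquitin ligase subunit that removes the CDK inhibitor p27, were left among the 120. Cdkn2a, a CDK inhibitor gene (1.03), was also among the 120, and Mad1l1, a spindle checkpoint gene (−1.22), was among the 58. The split of 85 and 0 therefore holds for listed genes only. With arrays scaled on spike-in spots the counts were 458 higher and 18 lower, or 96.2% higher in place of 77.9%, and with normexp background correction 113 and 28. The normexp setting here also adds an offset of 50 to every signal, which by itself makes differences of dim genes smaller. At least 4-fold differences numbered 19 higher and 4 lower. Where a gene that passed 2-fold had several probes, all of its probes that met the minimum had one sign, in 35 of 35 higher and 12 of 12 lower genes. Over all genes with several probes this held for 2696 of 3847. Genes past 2-fold were picked on the mean of these same probes, so their shared sign is no separate check. Of the higher genes 104 of 205 had a signal below 100 on siNeg, against 0 of the 58 lower genes and 565 of all 13089. The signal minimum shapes this contrast: a probe below 100 on siNeg entered only by reaching 100 on siKrt15, so it could not count as lower. The median signal of the higher genes was 98.0 on siNeg and 293 on siKrt15. Lower genes had a median of 359 on siNeg and 188 on siKrt15.

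**Figure D1:**
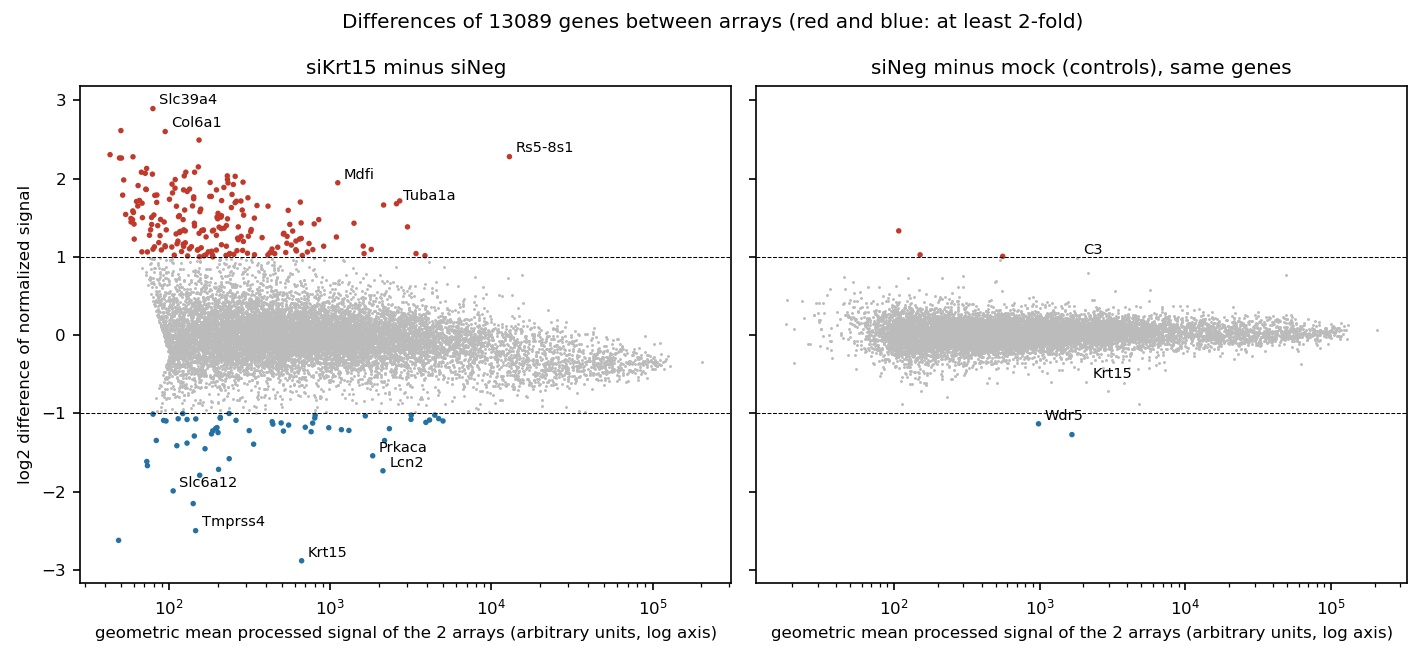
Log2 difference of each of 13089 genes against the geometric mean of its processed signal on the 2 arrays (log axis), for siKrt15 minus siNeg on the left and siNeg minus mock on the right; red and blue points are at least 2-fold higher and lower. On the left 205 genes lie above the upper dashed line and 58 below the lower one, most of them dim; on the right 3 and 2 do. The slanted left edge of the points on the left comes from the signal minimum of 100.

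Because the signal minimum has to be reached on only one array, it sets which dim genes enter. Just inside it were Cyp21a1, with 115 on mock, 100.1 on siNeg and 92.8 on siKrt15, and Ubox5, with 79.1, 62.0 and 100.1. Just outside were Card6, with 72.9, 82.0 and 99.9 (a difference of 0.02), and Utp25, with 121.8, 99.8 and 81.2 (−0.56). Of 4 equal classes by signal, the dimmest held 143 higher and 30 lower genes, and the brightest held 7 and 10. The cells kept the markers of their label: 12 of 12 basal and dental epithelial markers were above background on every array. Their summed signal before scaling was 244100 on mock, 243900 on siNeg and 276500 on siKrt15, and the median of their scaled differences was −0.06, which turned to 0.28 with spike-in scaling, 0.10 with quantile normalization and 0.12 with the trend on signal removed. Krt5, the basal type II keratin, was the brightest of them, at 102700, 105500 and 117300 before scaling, and its scaled difference of −0.11 turned under the same settings, to 0.23, 0.24 and 0.31. Of 30 markers of mesenchymal, endothelial, blood and neural cells, 22 had at least 1 probe above background on each array, with summed signals of 12610, 12070 and 10630. Lum, Pdgfrb, Cdh5, Kdr, Tie1, Tek and Hbb-b1 were not above background on any array. Other markers were bright: the brightest probe of Acta2, smooth muscle actin, had 4481 on mock, 4586 on siNeg and 3337 on siKrt15. A further Acta2 probe had only 131, 158 and 155. Among blood cell markers, again by the brightest probe, Itgam had 3221, 3000 and 2744, and Cd68 had 1302, 1333 and 1349. Ptprc had 1217, 947 and 1073, Csf1r had 908, 811 and 620.0, and Cd3e had 363, 376 and 340. Of the 7 Ptprc probes only 2 were above background on each array. The part of these cell types in the differences below was not tested.

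The largest higher differences were those of a metal transporter, a collagen chain and a protease inhibitor. Slc39a4, the zinc importer ZIP4, had signals of 20.8 on mock, 26.5 on siNeg and 236 on siKrt15, a difference of 2.89 ± 0.21. Col6a1, a chain of collagen VI, had 39.0, 35 and 254 (2.60 ± 0.21), and Ctla2a, an inhibitor of cysteine proteases, had 17.8, 18.5 and 136 (2.61 ± 0.22). Ctla2a has a near-identical relative, so the gene behind its signal is uncertain. For all of these both controls were below 100, and siKrt15 alone stood above it. The controls were furthest apart for Slc39a4, at 0.43, outside the central 95% of genes. The size of these differences rests on how dim signals are treated: with normexp correction Slc39a4 came to 1.64, Col6a1 to 1.62 and Ctla2a to 1.15. That setting includes the added offset of 50, and its part was not separated from that of the background estimate. Tslp, an epithelial cytokine that acts on dendritic cells and innate lymphoid cells, had 30.7 on mock, 35.2 on siNeg and 176 on siKrt15 (2.06). Angptl4, an inhibitor of lipoprotein lipase, had 61.1, 64.0 and 279 (1.87). Irs1, the adaptor of the insulin and IGF receptors, had 29.7, 40 and 165 (1.79). These again were dim on both controls, with siKrt15 alone above the minimum.

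The remaining names among the 15 highest were Pbp2 (2.08), Hrob (2.04), Kif26b (1.86), Ccdc74a (1.86), Aldh3b1, an aldehyde dehydrogenase (1.82), and Rs5-8s1, Mdfi, Tnc and Thbs1, which are described below. Kif26b stood at 0.96 with normexp. Several bright genes were higher as well. Mdfi, an inhibitor of myogenic bHLH factors, had signals of 483 on mock, 518 on siNeg and 2390 on siKrt15 (1.95, and 1.91 to 2.28 over 11 settings). Tuba1a, an alpha tubulin, had 1255, 1314 and 5040 (1.68, both of its probes within 1.67 to 1.68). Ppbp, the platelet basic protein chemokine CXCL7, had 1080, 1359 and 5342 (1.71). Emp1, a tetraspan membrane protein of epithelia, had 1878, 1704 and 5324 (1.38), and Basp1, a membrane-bound signalling protein, had 2116, 2166 and 5343 (1.04). In each of these siKrt15 was above both controls, which were furthest apart for Ppbp, at 0.41.

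**Figure D2:**
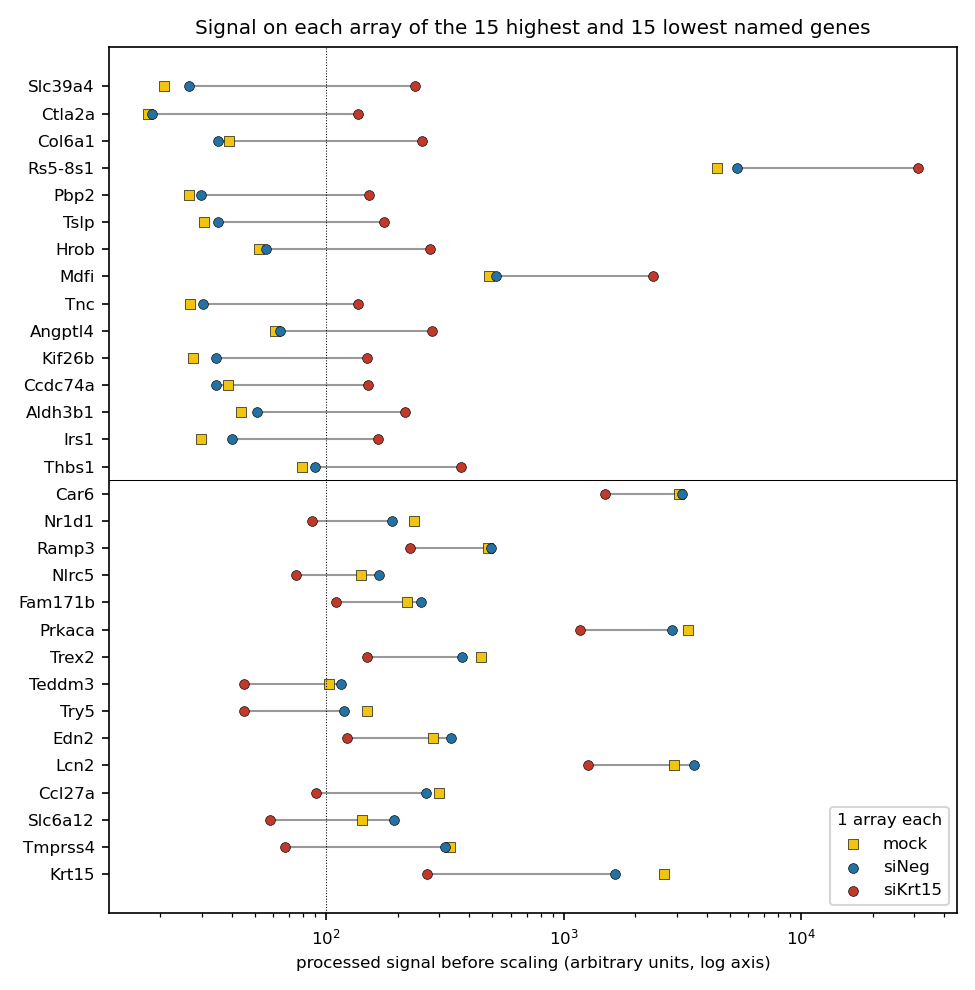
Processed signal before scaling (log axis) of the 15 highest and the 15 lowest named genes on each of the 3 arrays, with a grey line from siNeg to siKrt15; the dotted line marks a signal of 100. For the higher genes the mock and siNeg points lie on the left of siKrt15, and only Rs5-8s1 and Mdfi exceed 100 on the controls; for the lower genes Krt15 shows the widest gap between mock and siNeg.

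RNAs without a poly(A) tail lay on both sides. Rs5-8s1, a small ribosomal RNA of the large subunit, had signals of 4433 on mock, 5359 on siNeg and 31200 on siKrt15 (2.28). Others went the opposite way: Rn7s1, the RNA of the signal recognition particle, had 3873, 4204 and 2384 (−1.08, and −0.74 with spike-in scaling), and Rnu3b1, a U3 small nucleolar RNA, had 788, 716 and 366 (−1.23), the latter chosen after its values were seen. All of these rest on 1 probe each.

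After Krt15 and Tmprss4, the lowest differences included several secreted proteins. Lcn2, lipocalin 2, which binds bacterial iron carriers, had signals of 2930 on mock, 3536 on siNeg and 1272 on siKrt15 (−1.74). Ccl27a, a chemokine of keratinocytes that attracts skin-homing T cells, had 299, 263 and 90.9 (−1.79). Edn2, endothelin 2, had 281, 335 and 122 (−1.72). Car6, a secreted carbonic anhydrase, had 3069, 3163 and 1488 (−1.35). In each of these siKrt15 was below both controls, and the controls were furthest apart for Lcn2, at 0.35.

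Slc6a12, a transporter of betaine and GABA, had 142 on mock, 193 on siNeg and 58.0 on siKrt15 (−1.99). Its controls were 0.53 apart, and against mock the difference was −1.47. Prkaca, the catalytic alpha subunit of protein kinase A, had 3350, 2858 and 1174 (−1.54). Trex2, a 3′ exonuclease of keratinocytes, had 448, 372 and 149 (−1.58). Both were lower than either control. The other names among the 15 lowest were Try5 (−1.67, and −0.997 with normexp), a trypsin with near-identical relatives, Teddm3 (−1.62), Fam171b (−1.45, its 3 probes from −1.46 to −1.45), Nlrc5, a transactivator of MHC class I genes (−1.41, but −0.99 with normexp and −0.54 with no signal minimum, where dimmer probes enter), Ramp3, which modifies the calcitonin family of receptors (−1.40), and Nr1d1 (−1.38), described with the clock genes. The bright genes Hagh, a glyoxalase, Tom1l2, an endosomal adaptor, and Dstn, the actin-severing protein destrin, were lower by 1.12, 1.09 and 1.02 on the log2 scale, with siNeg signals of 5269, 5492 and 5793. With spike-in scaling all of these were under 2-fold, at −0.78, −0.75 and −0.69. Dstn was also under 2-fold with normexp (−0.97), quantile normalization (−0.967) and the trend on signal removed (−0.95), and Tom1l2 with no signal minimum (−0.93).

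Gene lists are described over their compared genes only; a gene that is dim on both arrays is left out, and a gene that entered through one array alone had to differ. Over all genes compared the median difference was −0.04, and a list's counts stand against the 1.57% higher and 0.443% lower of all genes. The lists can be incomplete, so their counts and medians hold for listed genes only. Matrix genes, of which 33 of 62 were compared, had a median of 0.20, and 4 of them passed 2-fold upward and 1 downward. For siNeg minus mock their median was 0.117, against 0.026 over all genes. The higher ones were Col6a1, Tnc, Fn1 and Thbs1. Tnc, tenascin C, a matricellular glycoprotein, had 26.7 on mock, 30.2 on siNeg and 136 on siKrt15 (1.91), and 0.96 with normexp. Thbs1, thrombospondin 1, had 79.5, 90.2 and 369 (1.77). Decorin (Dcn), a small proteoglycan, was the lower one, with 174, 150 and 85.8 (−1.07, but −0.73 with normexp and −0.735 with spike-in scaling), and Fbln1, fibulin 1, had 187, 243 and 515 (0.82). Col7a1, the collagen of anchoring fibrils beneath basal epithelium, was far brighter, at 9292, 9045 and 17970 (0.73). Matrix members thus spanned dim and bright genes, and 24 of 33 lay above 0, against 5810 of 13089 over all genes. Col6a1 and Tnc entered through the siKrt15 array alone. Secreted and membrane proteases and their inhibitors (44 of 75 compared) had a median of 0.09, and 4 passed 2-fold upward and 1 downward. Ctla2a, Serpinb1a, Mmp11 and Adamts4 were the higher listed ones. Other genes of this class past 2-fold lay outside the list, among them Mmp19 (1.26) and Serpinb1b upward and Try5 (−1.67) downward. Mmp11, stromelysin 3, had 441, 384 and 1078 (1.23). Serpinb1a, an inhibitor of neutrophil proteases, had 117, 126 and 421 (1.49) and Serpinb1b, its close copy, stood at 1.33; whether their probes cross-match was not tested. Tmprss4 was the lower listed one, while its relative Tmprss13 had 4428, 3702 and 2798 (−0.66).

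Growth factors, their receptors and binding proteins (60 of 78 compared) had a median of 0.05, and 5 passed 2-fold upward and 0 downward. Igfbp7, an IGF binding protein, had 229 on mock, 330 on siNeg and 1284 on siKrt15 (1.70), with controls 0.61 apart. Fgfbp1, which releases FGFs from the matrix, had 242, 185 and 555 (1.32). Nrp1, neuropilin 1, a co-receptor for semaphorins and VEGF, had 321, 318 and 914 (1.26, and 0.88 with no signal minimum). Of the guidance pair, the ligand Efnb2 stood at 1.25 and the receptor Epha4 at 1.13. Outside the list, Dusp6, the ERK phosphatase, had 1134, 985 and 2598 (1.14), and Spry1, sprouty 1, had 461, 382 and 975.3 (1.09), both chosen after their values were seen. Listed transcription factors (80 of 105 compared) had a median of 0.01, and 1 of them passed 2-fold upward and 0 downward. It was Lef1, the Wnt pathway factor, with 138, 165 and 474 (1.26). Etv4, an FGF-responsive factor, stood at 0.93 and Ahr, the aryl hydrocarbon receptor, at 0.90. At the other end Tead4 stood at −0.88, Klf9 at −0.76 and Jun at −0.66. The list is not complete: outside it, Scx (1.17) and Patz1 (1.025) were higher and Purb (−1.20) was lower. Foxm1 and Mybl2, also past 2-fold upward, were counted in the cell cycle list.

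Chemokine, interferon-induced and complement genes (34 of 83 compared) had the highest median of the lists outside the cell cycle, 0.34, and 4 passed 2-fold upward and 2 downward. Il18, a cytokine stored by epithelia, had 372 on mock, 368 on siNeg and 1015 on siKrt15 (1.20). Cx3cl1, fractalkine, had 59.5, 51.5 and 168 (1.45, and 0.84 with normexp), and C1ra, a complement protease, had 47.2, 52.2 and 142 (1.18). Complement C3 had 1327, 2485 and 6014 (1.01), and here siNeg was itself above mock by 0.99. The lower members were Ccl27a and S100a9, a calcium-binding alarmin, which had 106, 121 and 57.0 (−1.35, and −0.84 with normexp). The list therefore held members on both sides, with 21 above 0 and 13 below, against 5810 and 7279 over all genes. Outside the list, the interferon-inducible neighbours Ifi204, Mndal and Ifi202b on chromosome 1 stood at 1.02, 1.0 and 1.12, with Ifi204 at 0.985 and Mndal at 0.78 with normexp. They belong to the same gene family, and whether their probes cross-match was not tested. The chemokine gene Ppbp and the complement gene C8g also passed 2-fold upward and likewise lay outside the list, so its counts do not cover the whole class.

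Transporters and channels had members on both sides. The 166 solute carriers compared had a median of −0.02, and 3 passed 2-fold upward and 1 downward, close to the shares over all genes. Besides Slc39a4, the higher ones were Slc40a1, the iron exporter ferroportin, with 31.4 on mock, 31.3 on siNeg and 113 on siKrt15 (1.59), and Slc25a45, a mitochondrial carrier, with 83.6, 61.7 and 211 (1.51). Slc40a1 came to 0.78 with normexp. The metal handling list (30 of 38 compared) had a median of −0.01, and 2 passed 2-fold upward and 1 downward. Slc39a4 and Slc40a1 made up the higher ones, and Lcn2 was the lower one. The copper importer Slc31a1, with 1155, 1038 and 713, stood at −0.80, and Ftl1, the ferritin light chain, with 44310, 44830 and 27340, at −0.97. The 51 ion and water channel genes compared had a median of −0.01, and 3 passed 2-fold upward and 1 downward. Aqp5, a water channel of secretory epithelia, had 68.4, 66.8 and 222 (1.48, and 0.99 with normexp). Cacna1a (1.40, and 0.84 with normexp) and Cacnb3 (−1.12), subunits of voltage-gated calcium channels, lay on opposite sides. The 36 G protein-coupled receptors compared had a median of 0.15, and 2 passed 2-fold upward and 0 downward. These were Adgrf4, an adhesion receptor (1.48, and 0.74 with normexp), and Ackr3, a scavenger receptor for CXCL12 (1.04, and 0.86 with normexp). Of 130 GTPases and regulators compared (median 0.03), 3 passed 2-fold upward and 0 downward, among them Rgs3, which shortens G protein signalling, with 142, 149 and 540 (1.6).

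Keratinocyte differentiation genes (32 of 59 compared) had a median of −0.12, and 1 passed 2-fold upward and 4 downward. The median was −0.008 with quantile normalization and 0.004 with the trend on signal removed, near the −0.003 and 0.008 of all genes. Trex2, S100a9, Sprr2d, a cornified envelope protein, and Lgals7, galectin 7, were the lower ones. Sprr2d had 315 on mock, 171 on siNeg and 97.1 on siKrt15 (−1.08), a gene with near-identical relatives and controls 0.80 apart. Lgals7 had 128, 103 and 61.1 (−1.01). Mal, a raft protein of apical membranes, was the higher one, with 518, 464 and 1547 (1.48). Keratins other than Krt15 and keratin-anchoring genes (26 of 31 compared) had a median of −0.07, and 1 passed 2-fold upward and 0 downward. Their median turned to 0.057 and 0.061 under the same settings. Krt8, the type II keratin of simple epithelia, had 712, 780 and 2519 (1.43), and Eppk1 and Dst, plakin family linkers of keratin filaments, stood at −0.87 and −0.63. The 47 junction genes compared had a median of 0.09, and 2 passed 2-fold upward and 0 downward. Among these was Cldn6, a claudin (1.57, and 0.68 with normexp). Ctnna1, alpha-catenin, had 14220, 14210 and 9558 (−0.83).

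**Figure D3:**
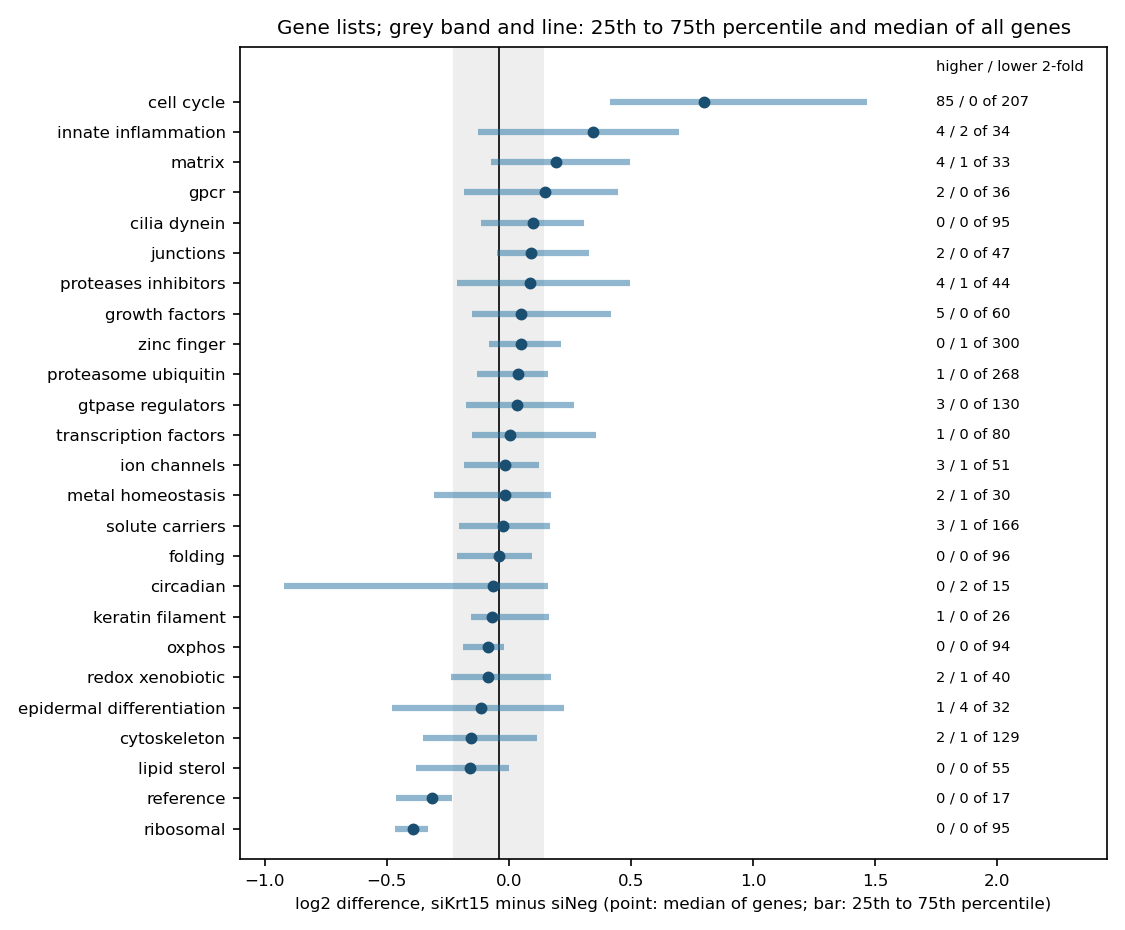
Median (point) and range between the 25th and 75th percentiles (bar) of the log2 difference, siKrt15 minus siNeg, over the compared genes of 25 lists, with the counts at least 2-fold higher and lower at the right; the grey band and black line are the same range and the median of all 13089 genes. The cell cycle list lies furthest to the right with a median of 0.80, inflammation and matrix follow at 0.34 and 0.20, ribosomal protein genes lie furthest to the left at −0.39, and the clock list has the widest bar.

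Core clock genes split into separate groups. The mammalian clock is a loop in which CLOCK and BMAL1 (Arntl) drive their repressors, the PER and CRY proteins, and a side loop in which ROR factors raise and REV-ERB factors (Nr1d1, Nr1d2) lower Arntl. Of 22 listed genes 15 were compared, with a median of −0.06, and 2 passed 2-fold downward and 0 upward. Single members were singled out after their values were seen. Nr1d1 had 234 on mock, 190 on siNeg and 87.4 on siKrt15 (−1.38). Dbp, a PAR bZIP factor that CLOCK and BMAL1 drive, had 988, 1049 and 618 (−1.02). Both were lower on siKrt15 than on either control. Dbp was under 2-fold with normexp (−0.92) and with spike-in scaling (−0.69), where Nr1d1 stood at −1.02 and −1.05. Nr1d2 had 307, 265 and 163 (−0.96, its 3 probes from −0.97 to −0.95). Rora had 279, 295 and 186 (−0.93), and Clock had 355, 360 and 228 (−0.92). Each of these genes was lower on siKrt15 than on both controls with every one of its probes that met the signal minimum, and among them siNeg and mock were furthest apart for Nr1d1, at −0.21. With no signal minimum Clock stood at −0.42. On the other side Cry2 had 163, 180 and 331 (0.62), Bhlhe40, a repressor also known as DEC1, had 723, 648 and 1075 (0.47), and Arntl had 186, 167 and 256 (0.36). Tef, Csnk1d, Ciart, Nfil3, Per1 and Csnk1e lay between −0.27 and 0.18. Hlf, Npas2 and Bhlhe41 were among the listed genes that did not pass the rule.

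**Figure D4:**
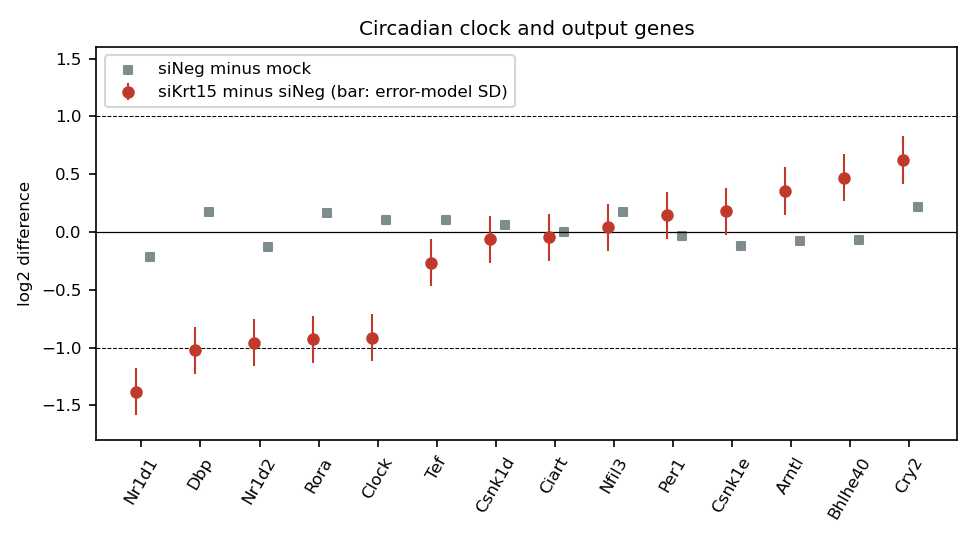
Log2 difference of clock and clock output genes, siKrt15 minus siNeg (red, with the error-model SD as the bar) and siNeg minus mock (grey squares); the dashed lines mark 2-fold. Nr1d1, Dbp, Nr1d2, Rora and Clock lie between −1.38 and −0.92 while their controls lie near 0, and Arntl, Bhlhe40 and Cry2 lie above 0.

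Other gene classes were read mainly for their medians. Scaling on spike-in spots raised every gene by the same amount, to a median of 0.30, so medians on that scale are read against 0.30. Ribosomal protein genes had a median of −0.39, with 91 of 95 below 0 (7279 of 13089 over all genes) and 0 beyond 2-fold. Rps6 had 27510 on mock, 26690 on siNeg and 20600 on siKrt15 (−0.63). Brightness moved with that shift: the brightest of the 4 signal classes had a median of −0.14, and the ribosomal median was −0.10 with the trend on signal removed, against 0.008 over all genes. With spike-in scaling it was −0.06, still below that of all genes. The 17 reference genes had a median of −0.32, or 0.02 with spike-in scaling and −0.08 with the trend removed, each below that of all genes. Sterol and fatty acid genes (55 of 69 compared) had a median of −0.16 (0.18 with spike-in scaling, below that of all genes on both scales), with 0 beyond 2-fold and 5 beyond 1.5-fold, all downward. Among these Lpin1, a phosphatidate phosphatase, stood at −0.94, Fabp5, a fatty acid binding protein, at −0.77 and Elovl5, a fatty acid elongase, at −0.75. The controls already differed in that direction: for siNeg minus mock the list's median was −0.105, against 0.026 over all genes, and Lpin1 stood at −0.34. Cytoskeleton genes, taken by symbol (129 compared), had a median of −0.16, likewise 0.18 with spike-in scaling. Of these 2 passed 2-fold upward, Tuba1a and the pseudogene Marcksl1-ps4 (1.06), and 1 downward, close to the 2.01% of all genes. The list reached beyond actin, myosin and tubulin genes, for example to the kinase gene Map4k1. Arpc5, a subunit of the branched actin nucleator, had 4324, 4310 and 2613 (−0.98), and Myh9, a nonmuscle myosin, stood at −0.63. Nuclear genes of the respiratory chain (94, median −0.09), heat shock and folding genes (96, −0.04) and cilia and dynein genes (95, 0.10) had 0 beyond 2-fold. Zinc finger genes had 1 of 300 lower, Zfp36l3 at −1.22 (−0.89 with spike-in scaling), and proteasome and ubiquitin genes had 1 of 268 higher, Ube2c, a mitotic ubiquitin-conjugating enzyme, at 1.42. Among glutathione and xenobiotic enzymes 2 of 40 were higher, Aldh3b1 and Gstm2 (1.34), and 1 was lower, Gsta2 (−1.15, and −0.815 with spike-in scaling), a glutathione transferase with near-identical relatives, with a median of −0.09; this share was above the 2.01% of all genes but rests on 3 genes.

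For a few genes siNeg and mock were not alike. Of the 263 genes, 11 had siNeg and mock at least 0.5 apart, and 1 of them at least 2-fold apart. That gene was Wdr5, a subunit of histone methyltransferase complexes, with 1500 on mock, 645 on siNeg and 1843 on siKrt15. It stood at 1.25 against siNeg and at 0.12 against mock, so the siNeg array was the one apart. With a signal minimum of 50, which lets in a dimmer probe, it stood at 0.53 against siNeg. Krt15, Slc6a12, Igfbp7, Irs1, Sprr2d, C3, Cdkn3 and Fxyd5 were also among the 11. In 234 of the 263 genes siKrt15 and mock were at least 2-fold apart, which uses the siKrt15 array again. Probes of one gene disagreed most for Cenpf, a kinetochore protein (1.35 and 2.04), Anp32a, a histone-binding phosphatase inhibitor (0.67 and 1.38), and Patz1, a zinc finger factor (0.76 and 1.29). All probes of these genes that met the minimum were higher on siKrt15. Some of the 263 genes were next to each other along a chromosome when only compared genes with a RefSeq position were counted. Genes that were not compared may lie between them, and a pair may be far apart. Some pairs, such as Ifi204 and Mndal, belong to 1 gene family. How many such pairs would arise at random was not tested. On this count 9 pairs lay on the same side. They included Pbp2 and Emp1 on chromosome 6 (2.08 and 1.38), Dok2, a docking protein, and Gfra2, a GDNF family receptor, on chromosome 14 (1.38 and 1.35), and Aldh3b2 and Acy3, an aminoacylase, on chromosome 19 (1.31 and 1.53).

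The promoters of these genes were read for what they share beyond the differences that chose them. RefSeq promoter windows of 300 bases (250 before the start of transcription and 50 after, GRCm38.p6) were matched by symbol for 83 of the 120 higher genes outside the cell cycle list, 68 of the 85 in it, 39 of the 58 lower genes and 8698 of the genes compared. Windows were searched on both strands for 27 motifs, and those described here were picked after the shares were seen. The AP-1 site TGACTCA, bound by FOS and JUN dimers, was present in 9 of 83 higher genes outside the cell cycle list (10.8%), 0 of 68 in it, 2 of 39 lower genes (5.13%) and 3.51% of all genes compared. Over all 27025 windows of the table it was present in 5.17%. The TATA box TATAAA, which may overlap other AT-rich matches, was present in 20.5% of the first group, 1.47% of the cell cycle group, 10.3% of the lower group and 7.13% of genes compared, and in 14.2% of all windows. The TEAD site GGAATG was present in 22.9%, 10.3%, 10.3% and 11.7%, and in 14.6% of all windows. For each of these motifs the share in the higher genes outside the cell cycle was above that of the genes compared, a description for which no test was made. They also held fewer CpG pairs, with a median of 9 per window against 21 over genes compared and 23.5 in the cell cycle group, and the lower genes likewise had 9. AP-1 genes themselves stood apart in direction: Fos had 266 on mock, 266 on siNeg and 564 on siKrt15 (0.83), while Jun stood at −0.66 and Atf3 at −0.80.

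Of the other motifs described, CHR, the CCAAT box and the GC box were more frequent in the cell cycle group than in the genes compared. The E-box and the CRE core were less frequent there, whereas the full cAMP response element (CRE) was more frequent there. The cell cycle element CHR, TTTGAA, was present in 45.6% of the cell cycle group, 16.9% of the other higher genes, 0 of 39 lower genes and 11.9% of genes compared (18.1% of all windows). The CCAAT box CCAAT was present in 67.6%, 36.1%, 46.2% and 38.7% (37.9% of all windows). The GC box GGGCGG was present in 77.9%, 54.2%, 53.8% and 65.6% (35.9% of all windows). The E-box CACGTG, which CLOCK and BMAL1 bind, was present in 7.35% of the cell cycle group, 4.82% of the other higher genes, 10.3% of lower genes and 10.7% of genes compared (7.24% of all windows). The core TGACGT of the cAMP response element (CRE core in the plot of motif shares) was present in 8.82%, 4.82%, 2.56% and 12.6% (7.64% of all windows). The full element TGACGTCA, which holds this core, was present in 5.88% (4 of 68), 1.2%, 2.56% and 3.55% (1.88% of all windows). The E-box share of the lower genes was thus near that of all genes compared.

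Stretches around the AP-1 matches of 4 higher genes show how the site is set in each promoter, with the match in capitals, on the strand of the gene (GRCm38.p6, RefSeq).
Ctla2a (chr13:60936726-60936775, minus strand): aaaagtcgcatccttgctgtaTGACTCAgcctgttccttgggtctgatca
Col6a1 (chr10:76726106-76726155, minus strand): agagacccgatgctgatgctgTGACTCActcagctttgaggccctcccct
Adgrf4 (chr17:42692380-42692429, minus strand): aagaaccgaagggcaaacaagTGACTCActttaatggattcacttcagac
Emp1 (chr6:135362765-135362814, plus strand): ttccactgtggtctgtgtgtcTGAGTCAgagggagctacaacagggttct
The match starts 129 bases before the start of transcription in Ctla2a, 90 in Col6a1, 124 in Adgrf4 and 145 in Emp1. In Emp1 the site reads as TGAGTCA, the same site on the other strand. These genes differed by 2.61, 2.60, 1.48 and 1.38 between siKrt15 and siNeg. A match is a string of letters and was not measured as a bound site.

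**Figure D5:**
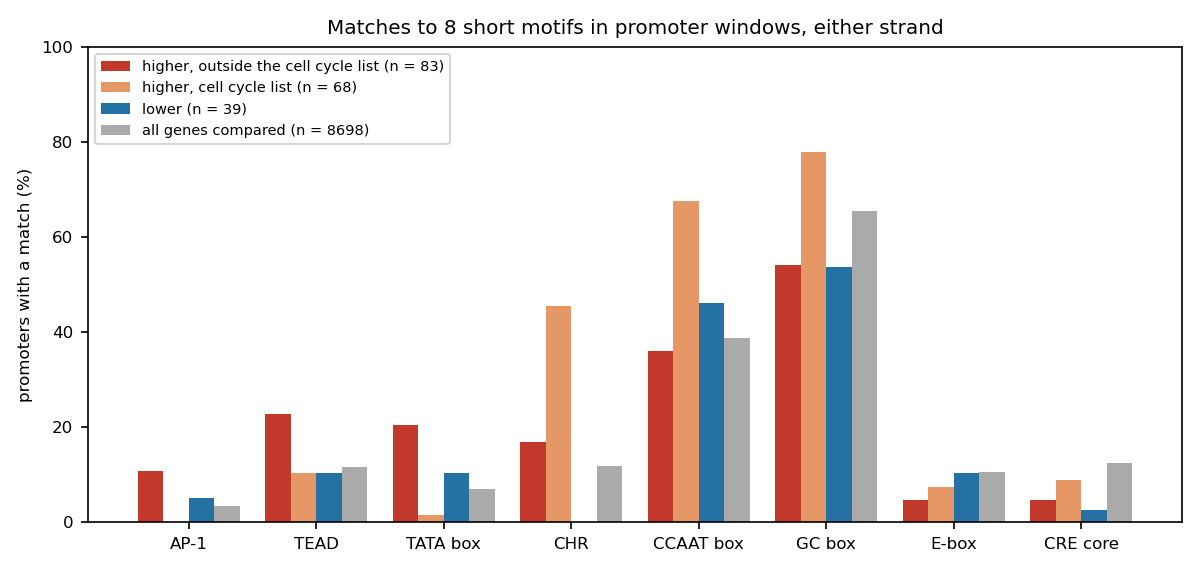
Share of promoter windows with a match on either strand to each of 8 motifs, for the higher genes outside the cell cycle list (83), the higher genes in it (68), the lower genes (39) and all genes compared (8698). AP-1, TEAD and TATA box matches are most frequent in the first group, at 10.8%, 22.9% and 20.5%, and CHR and CCAAT matches in the cell cycle group, at 45.6% and 67.6%.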

How the data were processed

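Total RNA of 3 cultures was labelled with Cy3 for 1-colour Agilent arrays, as the labels' protocols state. Agilent Feature Extraction 11.5.1.1 was used, per the submitters' processing notes. The deposited scanner files hold a background-corrected processed intensity for each spot, with probe positions on mm9 per the file headers. The deposited value table holds log2 values that match log2 processed signal less a constant near each array's 75th percentile; its medians were −3.52 (mock), −3.51 (siNeg) and −3.72 (siKrt15), and 92.5% to 94.1% of probes lay within 0.011.

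Control and outlier spots were left out. The log2 processed signal less the array's 75th percentile (191.1, 180.4 and 216.0 for mock, siNeg and siKrt15) was averaged over spots of a probe and, for differences, over the probes of a gene name. Well above background were 69.0%, 69.2% and 67.3% of spots, and 0 were saturated. Replicate spots had a median SD of 0.045. A printed signal of a gene with several probes is the geometric mean of its probes. Names came from RefSeq (GRCm38.p6): an accession named 33898 probes, a symbol 9458 and an older symbol 488, and 12754 kept the name in the files. Named genes were Krt15, Tmprss4, Slc39a4 and Col6a1, the 15 highest and 15 lowest with a proper symbol outside the cell cycle list whose probes had one sign, the 10 brightest of such genes at 2-fold, up to 3 per list with the largest difference, the 3 whose probes differed most, genes at the signal minimum and the epithelial markers; other genes, including further list members, neighbours and clock genes, were chosen after their values were seen. Some list members that the rule names are not reported here. The members and lists were chosen with earlier results of these data known. The procedure was tested on simulated data with R 4.3.3, limma 3.58.1, Python 3.11.15, pandas 2.3.3 and statsmodels 0.14.6. Alternatives changed the background correction (normexp, offset 50), the scaling, the signal minimum, the fold and the choice of probe. Each condition had 1 array, so precision is limited by their number and no p-value was computed.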

Additional observations from a re-analysis of the deposited data

Results flagged for a closer look

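One probe reached the signal minimum on the siKrt15 array and was not well above background on either control, so it took no part in the comparison. It reads Shisa6, which encodes an auxiliary subunit of glutamate receptors, and its processed signal was 0.954 on mock, 0.979 on siNeg and 124.9 on siKrt15. Against the lowest signal well above background on siNeg, it was at least 23.2-fold higher on siKrt15. The value rests on 1 probe on 1 array, and the cause was not tested.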

How the results depend on the processing

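Of 82 named genes at least 2-fold apart, 58 had a value in all 10 other settings, and the other 24 were too dim for the minimum of 200 and had a value in 9. All 82 kept their sign and 47 stayed at least 2-fold apart in the settings that gave them a value. The main counts were 205 higher and 58 lower. They came to 113 and 28 with normexp correction, where 28 named genes, mostly dim, were under 2-fold, to 458 and 18 with spike-in scaling, to 321 and 536 with no signal minimum, and to 570 and 452 at 1.5-fold. Spike-in scaling, from 9 probes, moved the median of all genes by 0.34, and higher genes then made up 96.2% of the calls in place of 77.9%, against 37.5% with no signal minimum and 55.8% at 1.5-fold. The Krt15 difference, siKrt15 minus siNeg, stood at −2.64 with normexp and −2.55 with spike-in scaling. Quantile normalization (208 and 53), removal of the signal trend (208 and 55), the percentile over probes well above background (203 and 60), the deposited value table (205 and 58), minimums of 50 (255 and 78) and 200 (153 and 46) and the brightest probe per gene (208 and 60) stayed within 1.5 times the main counts. Dim genes limit these results, since 104 of the 205 higher genes had a signal below 100 on siNeg. The size of their differences depends on how dim signals are treated. The normexp setting changed both the background correction and, through its offset of 50, every signal, and these parts were not separated. No paired analysis was possible because each condition had 1 array and the labels give no replicate numbers.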
